A study of Mus musculus with 108 samples.

Results

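The 7 genes described here encode subunits of the voltage-gated sodium channels of the brain. The 4 alpha subunit genes are Scn1a, Scn2a, Scn3a and Scn8a, and the 3 beta subunit genes are Scn2b, Scn3b and Scn4b. They were chosen by name, as the entries of the deposited count table whose Ensembl identifiers carry these symbols, and are 7 of its 53465 genes. Total RNA sequencing, which reads all RNA after removal of ribosomal RNA, was made from 3 brain regions of wild-type (WT) and Cul3+/- (HET) mice at a late embryonic stage (E17.5), postnatal day 7 (P7) and postnatal day 35 (P35), the adult stage of 4 to 6 weeks. The regions were the cerebellum (CB), the hippocampus (HIP) and the cortex (CX). All mice were of the C57BL/6N background, written C56Bl/6N in the labels, and HET mice carried 1 germline copy of Cul3, a ubiquitin ligase scaffold, with a frame-shifting insertion made by CRISPR/Cas9, in every tissue and from a single founder. The 3 regions were taken from the same 36 mice, which gave 108 libraries, with each age represented by different mice. Each group held 6 libraries at E17.5 and P7 and 5 at P35, because 6 libraries of 2 adult mice, whose genotype differs between the labels and a supplementary table, were left out.

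A voltage-gated sodium channel opens when the membrane is depolarized and carries the inward current of the action potential. The alpha subunit forms the pore, senses the voltage and closes itself again through an inactivation gate, while beta subunits are small membrane proteins with an immunoglobulin-like domain that modify gating and anchor the channel. In the rodent brain, Scn3a is known mainly from the embryo, Scn2a from young excitatory neurons and unmyelinated axons, Scn8a from mature axon initial segments and nodes of Ranvier, and Scn1a from fast-spiking interneurons and other fast-firing cells. Scn2b and Scn4b bind alpha subunits through a disulfide bond and Scn3b binds without one. Scn4b is further known as the subunit whose cytoplasmic tail can block the open pore and give the resurgent current of Purkinje cells.

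In the GRCm38 genome, Scn3a (ENSMUSG00000057182, chr2:65457118-65567627, minus strand), Scn2a (ENSMUSG00000075318, chr2:65620771-65767447, plus strand) and Scn1a (ENSMUSG00000064329, chr2:66270778-66440840, minus strand) lie in a cluster. Scn3a and Scn2a are 53.1 kb apart with 0 protein-coding genes between them, and Scn2a and Scn1a are 503.3 kb apart. Scn8a (ENSMUSG00000023033) lies on its own at chr15:100869858-101045938 on the plus strand. The longest protein-coding transcript of each alpha gene has 27 exons. The beta genes all lie on the plus strand of chromosome 9, with Scn3b (ENSMUSG00000049281) at chr9:40269217-40291618, Scn2b (ENSMUSG00000070304) at chr9:45117782-45130070 and Scn4b (ENSMUSG00000046480) at chr9:45138395-45154152. Scn2b and Scn4b are neighbors 8.3 kb apart. The alpha genes are near-copies of each other in their conserved parts. Reads that fall inside such a part can be divided among the alpha genes by the read assignment, which uses the whole read pair and the less conserved parts of the transcripts, so the counts of the alpha genes carry that uncertainty. Genes on the opposite strand overlap Scn1a (Gm13630), Scn3a (Gm13595), Scn2b (Gm10684) and Scn3b (Gm47266), and held at most 20 counts in any library.

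The promoters of the neighbors Scn2b and Scn4b are shown because both genes rose with age in each region, while the letters of their start regions are unlike. Each window, from RefSeq on GRCm38.p6, holds 250 bases before and 50 after the start of transcription on the plus strand, with each CG pair in capitals. They lie at chr9:45117626-45117925 and chr9:45138374-45138673.
Scn2b: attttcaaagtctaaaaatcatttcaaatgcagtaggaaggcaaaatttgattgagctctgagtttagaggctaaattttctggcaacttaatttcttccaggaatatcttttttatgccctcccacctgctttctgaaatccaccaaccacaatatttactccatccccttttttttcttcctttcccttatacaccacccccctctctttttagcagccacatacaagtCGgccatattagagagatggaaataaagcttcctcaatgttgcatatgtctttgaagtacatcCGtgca
Scn4b: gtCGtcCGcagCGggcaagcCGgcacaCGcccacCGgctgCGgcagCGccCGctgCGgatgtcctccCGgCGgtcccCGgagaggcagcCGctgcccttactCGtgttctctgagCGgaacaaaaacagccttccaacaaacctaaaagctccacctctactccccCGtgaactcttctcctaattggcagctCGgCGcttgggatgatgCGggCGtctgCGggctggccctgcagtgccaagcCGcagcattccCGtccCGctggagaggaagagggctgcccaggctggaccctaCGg
The Scn2b window held 2 CG pairs and 38.3% G or C, and the Scn4b window 26 CG pairs and 66.3%, against a median of 7 CG pairs over the 32851 RefSeq windows of the same length. Neither window held TATAAA or GGGCGG on either strand, motifs that 13.6% and 35.7% of all windows hold. The table had an entry for 5 of the 7 members.

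Library totals ran from 15126114 to 44411282 counts. Levels are given as CPM, the count of a gene relative to the TMM-scaled total of its library, and differences as log2 ratios from edgeR's quasi-likelihood test. A difference was called where the p, adjusted over all genes by the Benjamini-Hochberg method, was 0.1 or less. Cul3 itself was lower in HET in 9 of 9 datasets, with log2 differences of -0.99 to -0.74, and was called in each. At P35, Pcp2, a Purkinje cell gene, was at 259.7 CPM in WT cerebellum and 0.068 in cortex, and Prox1, a dentate granule cell gene, at 110.3 in hippocampus and 13.4 in cortex. These are bulk tissues, in which fewer cells of a type and less RNA per cell cannot be told apart.

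Among the E17.5 libraries, the 4 embryos with the code S3 in their names, 2 WT and 2 HET, stood apart from the other 8. What the code stands for is not given in the labels. In the cortex, Scn2a was at 77.0 to 152 CPM in S3 embryos and 178 to 268 in the others, Scn3a at 106 to 157 and 186 to 222, and Scn3b at 114 to 136 and 173 to 204. In the hippocampus, Scn1a was at 5.21 to 6.24 CPM in S3 embryos and 9.69 to 16.7 in the others, and Scn2a at 39.8 to 64.2 and 89.99 to 145. These ranges did not overlap, and both genotypes were on both sides. In the cerebellum the order of Scn3a turned, at 143 to 174 CPM in S3 embryos and 101.3 to 137 in the others, while Scn8a was at 65.7 to 80.7 and 81.6 to 91.1. The summed level of 4 genes of dividing cells moved with the code, at 653 to 721 CPM against 264 to 400 in the cortex and 477 to 573 against 627 to 759 in the cerebellum. The summed level of 7 neuronal genes was 3722 to 4195 against 4710 to 5262 CPM in the cortex. Their part in the E17.5 values was not tested, and results that change without these embryos are given with both values.

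To ask how the channel subunits change as each region matures, WT libraries of successive ages were compared within a region. From E17.5 to P7, 6 of 7 members rose in the cortex and 0 fell (81.9% of all genes were called in either direction), 7 rose in the hippocampus (78%), and 4 rose and 3 fell in the cerebellum (71.2%). From P7 to P35, 4 rose and 2 fell in the cortex (67.7%), 4 rose and 1 fell in the hippocampus (62.7%), and 5 rose and 2 fell in the cerebellum (79.4%). Most genes tested changed over these steps, so the number of members called says little by itself, and the sizes and directions of the changes carry the description. The median log2 change of the 7 members in the cortex was 1.71 to P7 and 1.19 to P35, against 0.012 and -0.031 over all genes tested. In the hippocampus it was 2.19 and 0.93, against -0.0046 and -0.010. In the cerebellum it was 0.39 and 2.92, against -0.0051 and 0.0094. Scn1a, Scn8a, Scn2b and Scn4b rose at both steps in all 3 regions. Scn3a and Scn3b fell from P7 to P35 in the cortex and at both steps in the cerebellum, and Scn2a fell in the cerebellum to P7 before it rose there.

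**Figure D1:**
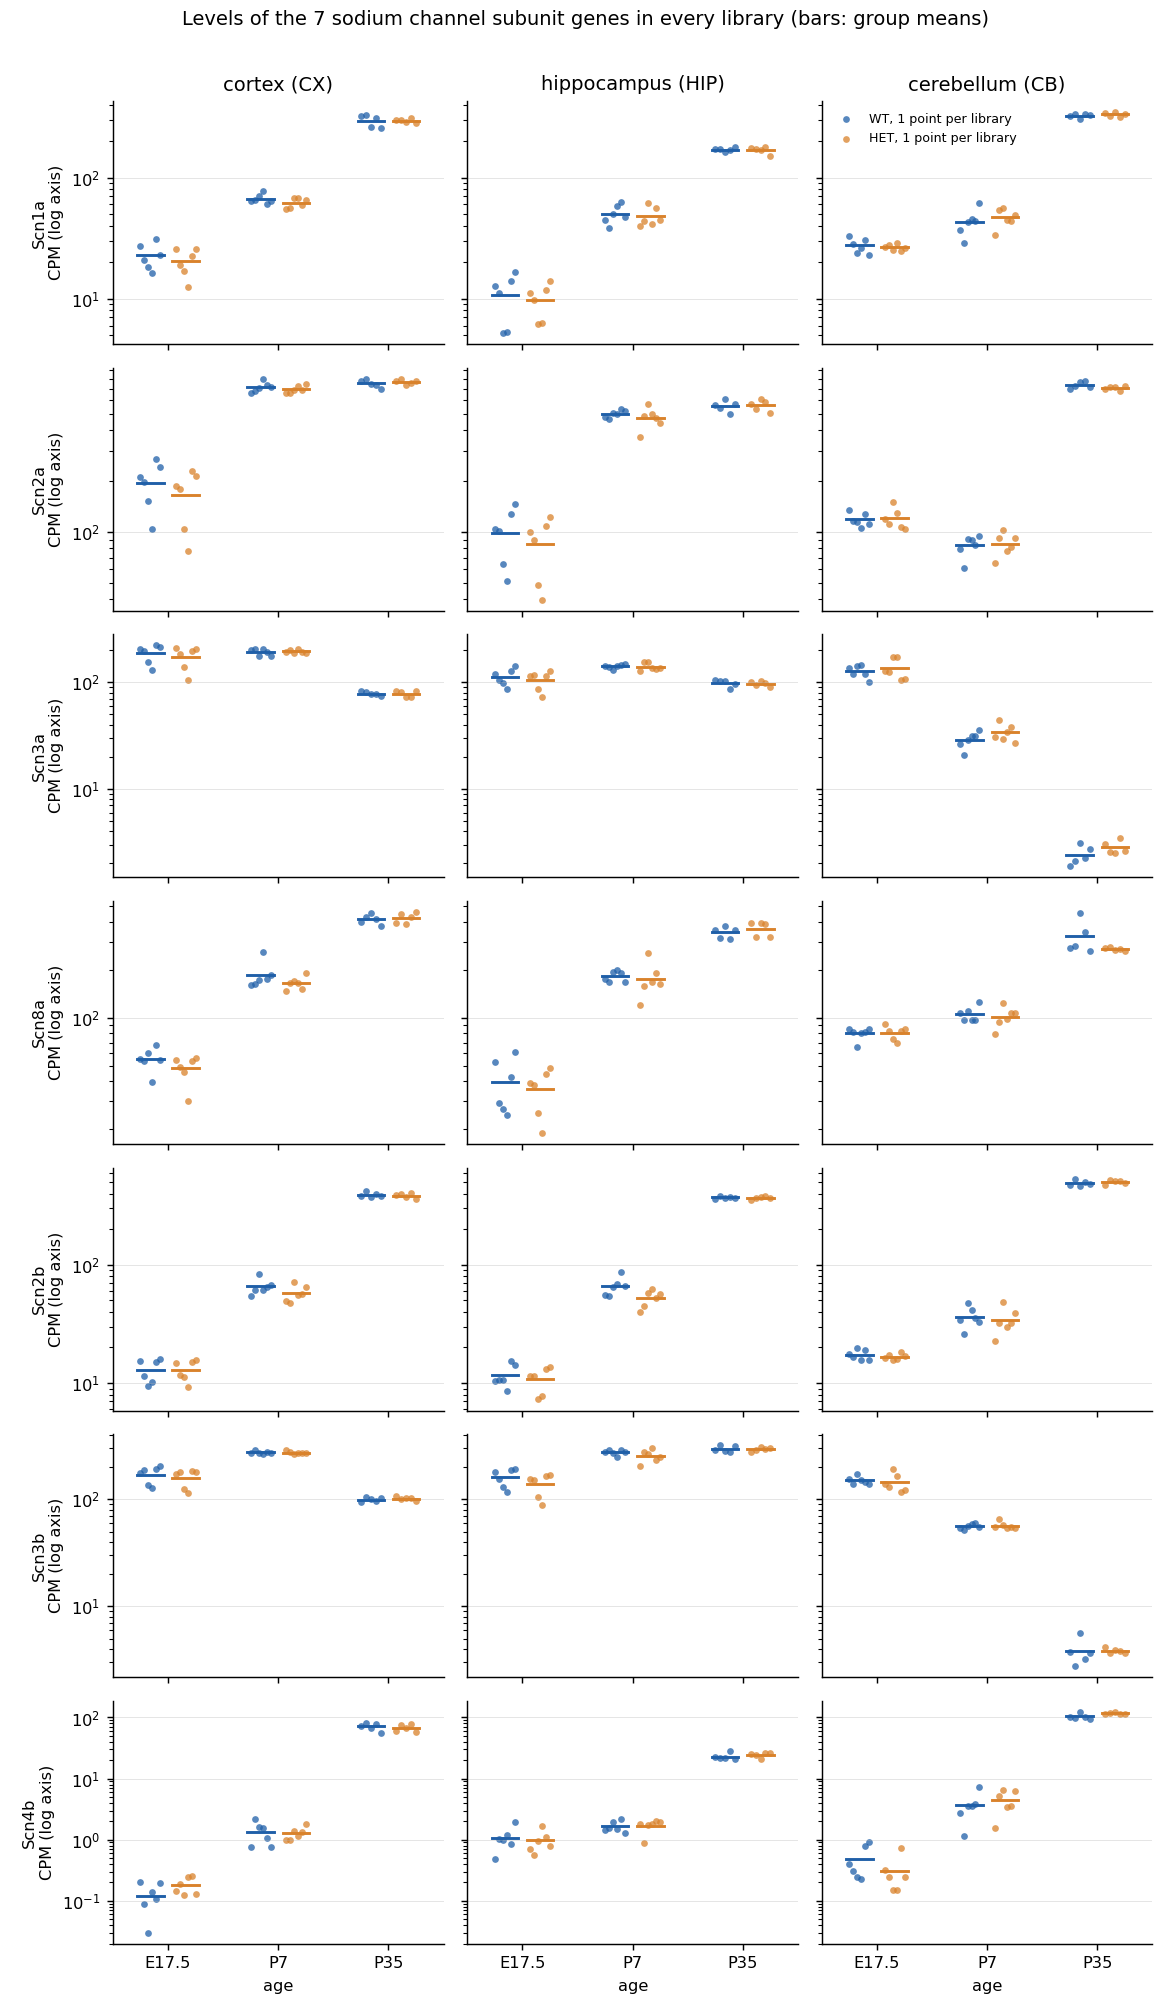
Level of each subunit in every library, in TMM-scaled CPM on a logarithmic axis, by age within cortex, hippocampus and cerebellum. Points are libraries (WT blue, HET orange), bars are group means, and a level of 0 is drawn at 0.03. WT and HET ranges overlap in all 63 pairs of groups, and Scn3a and Scn3b drop below 6 CPM only in adult cerebellum.

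Scn1a was low before birth and high in the adult in each region. In WT cortex, its lowest, median and highest levels were 16.4, 21.96 and 31.2 CPM at E17.5 and 60.4, 64.9 and 78.2 at P7, and the 5 adult libraries were at 321, 332, 259.6, 309.7 and 259. The ages did not overlap. The rise was 1.51 (SE 0.128, adjusted p = 4.50e-09) on the log2 scale to P7 and 2.18 (SE 0.132, adjusted p = 1.01e-10) to P35, which is 2.85-fold and 4.52-fold. Hippocampal levels were lower, at 5.21, 11.9 and 16.7 CPM at E17.5, 38.4, 48.8 and 62.3 at P7 and 172, 173, 162, 169 and 178 at P35, with rises of 2.19 (SE 0.223) and 1.79 (SE 0.220). In the cerebellum most of the rise came late. The levels there were 23.1, 27.4 and 33.3 CPM at E17.5, 28.8, 43.5 and 61.5 at P7 and 320.2, 334, 307, 334 and 327 at P35. The log2 change was 0.64 (SE 0.131) to P7 and 2.92 (SE 0.141), or 7.56-fold, to P35. The highest group mean, 324 ± 11.4 CPM (SD, n = 5) in adult cerebellum, was 29.97 times the lowest, 10.8 ± 4.68 CPM (SD, n = 6) in E17.5 hippocampus. Adult cerebellum and cortex, at 296 ± 34.5 CPM (SD, n = 5), overlapped in range, whereas adult hippocampus stood below both.

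Scn2a rose to P7 in the forebrain regions, with no later change that passed the test, and in the cerebellum fell to P7 and rose after it. Cortical levels were 104, 204 and 268 CPM (lowest, median and highest) at E17.5, 661, 714 and 799.5 at P7 and 783, 802, 748, 738 and 702 in the 5 adult libraries. In the hippocampus they were 51.0, 103 and 145 CPM at E17.5, 463, 503 and 534 at P7 and 564, 539, 613, 499.9 and 573 at P35. To P7, Scn2a rose by 1.83 (SE 0.159) on the log2 scale in the cortex, 3.55-fold, and by 2.32 (SE 0.185) in the hippocampus, 5.00-fold. From P7 to P35 neither region passed the test, with log2 changes of 0.11 (approximate 95% interval -0.21 to 0.42, adjusted p = 0.585) in the cortex and 0.19 (approximate 95% interval -0.18 to 0.55, adjusted p = 0.411) in the hippocampus. Without the S3 embryos, whose spread enters the same fit, the hippocampal change was 0.18 with an adjusted p of 0.0670, under the threshold. The cerebellum went the other way in the early step. Its levels were 106, 115 and 135 CPM at E17.5 and 61.5, 86.8 and 94.8 at P7, a log2 change of -0.52 (SE 0.0858, adjusted p = 3.34e-05), and the adult libraries were at 702, 730.2, 767, 783 and 716. The late rise there was 3.16 (SE 0.0945, adjusted p = 8.44e-16), or 8.96-fold. The P7 cerebellum, at 83.3 ± 11.98 CPM (SD, n = 6), was thus the lowest of the 9 group means and adult cortex, at 754 ± 39.3 CPM (SD, n = 5), the highest, a ratio of 9.06. Adult cortex, adult cerebellum and P7 cortex overlapped in range.

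Scn3a, an alpha subunit known mainly from the embryo, was as high at P7 as at E17.5 in the cortex, remained in the adult forebrain and fell to a few CPM in the adult cerebellum. In WT cortex its levels were 129.6, 202 and 222 CPM (lowest, median and highest) at E17.5, 176, 197 and 207 at P7 and 82.5, 81.5, 77.3, 77.7 and 74.4 in the 5 adult libraries. The step to P7 gave -0.0028 (approximate 95% interval -0.20 to 0.20, adjusted p = 0.981) on the log2 scale, and -0.17 with an adjusted p of 0.0126 without the S3 embryos, so the call depends on those embryos. The fall to P35 was -1.27 (SE 0.110, adjusted p = 1.39e-08), 2.40-fold. Hippocampal levels moved less, at 86.5, 114 and 143 CPM at E17.5, 130.2, 144 and 149.6 at P7 and 105, 102.4, 103, 86.1 and 95.9 at P35. Scn3a rose there by 0.31 (SE 0.0921, adjusted p = 0.00545) and then changed by -0.51 (SE 0.0973). In the cerebellum it fell at both steps, from 101.3, 128 and 144 CPM at E17.5 to 20.8, 30.1 and 35.4 at P7 and 1.89, 2.13, 3.13, 2.24 and 2.76 at P35. No 2 ages overlapped. The log2 changes were -2.15 (SE 0.122, adjusted p = 4.70e-11) and -3.57 (SE 0.155, adjusted p = 1.69e-13), which are falls of 4.43-fold and 11.9-fold. Over the 9 groups the means spanned 79.8-fold, from 2.43 ± 0.504 CPM (SD, n = 5) in adult cerebellum to 194 ± 13.8 CPM (SD, n = 6) in P7 cortex.

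Scn8a, the subunit of mature initial segments and nodes, rose at each step in each region. Its cortical levels were 39.3, 54.5 and 67.7 CPM (lowest, median and highest) at E17.5, 161, 174 and 260.5 at P7 and 402, 431, 451, 415 and 375 in the adult libraries. The log2 changes were 1.71 (SE 0.122) and 1.19 (SE 0.124). Hippocampal levels were 24.5, 35.8 and 61.1 CPM at E17.5, 167, 184 and 200.3 at P7 and 355, 316, 376, 314 and 355 at P35, with changes of 2.20 (SE 0.182) and 0.93 (SE 0.181). In both forebrain regions the 3 ages did not overlap. The cerebellum began higher and changed least by P7, from 65.7, 81.6 and 84.9 CPM to 96.4, 102.1 and 126, a log2 change of 0.39 (SE 0.116, adjusted p = 0.00654). The 5 adult cerebellar libraries were at 274, 281, 456.5, 345 and 263 CPM, and the change to P35 was 1.63 (SE 0.122). WT replicate 3 of the adult cerebellum, at 456.5 CPM, stood above the other 4. The 9 means spanned 10.5-fold, from 39.5 ± 15.2 CPM (SD, n = 6) in E17.5 hippocampus to 415 ± 29.0 CPM (SD, n = 5) in adult cortex.

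Among the beta subunits, Scn2b, which is disulfide-linked to the alpha subunit, rose at both steps in all 3 regions. In WT cortex its lowest, median and highest levels were 9.48, 13.2 and 15.9 CPM at E17.5 and 54.7, 63.2 and 83.8 at P7, and the adult libraries were at 382, 421, 372, 397 and 378. In the hippocampus they were 8.65, 10.6 and 15.3 CPM at E17.5, 54.4, 65.7 and 86.2 at P7 and 361, 384, 366, 372 and 369 at P35. In the cerebellum they were 15.7, 17.1 and 19.7 CPM, 25.99, 34.6 and 47.1 and 472, 533, 461, 499 and 478. No 2 ages overlapped in any region. The log2 rises were 2.30 (SE 0.130) and 2.61 (SE 0.131) in the cortex and 2.48 (SE 0.129) and 2.52 (SE 0.129) in the hippocampus. In the cerebellum, the early rise was 1.03 (SE 0.108) and the late rise 3.77 (SE 0.118, adjusted p = 1.44e-15), or 13.7-fold. The ratio of the highest mean, 489 ± 28.4 CPM (SD, n = 5) in adult cerebellum, to the lowest, 11.7 ± 2.55 CPM (SD, n = 6) in E17.5 hippocampus, was 41.9.

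Scn3b, the non-covalently bound subunit, took a separate course in each region. Its cortical levels were 127, 181 and 204 CPM (lowest, median and highest) at E17.5, 267, 269.9 and 292 at P7 and 95.3, 104, 99.6, 96.3 and 103 in the adult libraries. It thus rose by 0.64 (SE 0.0953) and then changed by -1.43 (SE 0.103, adjusted p = 1.07e-09), a 2.69-fold fall to below the embryonic range. In the hippocampus the levels were 118, 167 and 194 CPM at E17.5, 249, 275 and 289 at P7 and 289, 319, 282, 278 and 315 at P35. The hippocampal rise to P7 was 0.76 (SE 0.102) and the later step gave 0.13 (approximate 95% interval -0.073 to 0.34, adjusted p = 0.295), or 0.13 with an adjusted p of 0.0841 without the S3 embryos. In the cerebellum Scn3b was at 138, 148 and 173 CPM at E17.5, 51.3, 55.5 and 59.6 at P7 and 3.77, 2.77, 5.69, 3.19 and 3.63 at P35. It fell 2.73-fold, -1.45 (SE 0.102) on the log2 scale, and then 14.7-fold, -3.87 (SE 0.130, adjusted p = 4.01e-15). The 9 means spanned 77.8-fold, between 3.81 ± 1.12 CPM (SD, n = 5) in adult cerebellum and 296 ± 18.96 CPM (SD, n = 5) in adult hippocampus.

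Scn4b, the resurgent-current subunit, had the widest span of the 7 members. At E17.5 it was near the limit of the depth. The 6 WT cortex libraries held 0 to 7 counts each, 22 in all, which is 0, 0.123 and 0.201 CPM (lowest, median and highest). The hippocampus, at 0.490, 1.01 and 1.94 CPM, and the cerebellum, at 0.225, 0.355 and 0.909 CPM, held 8 to 61 and 8 to 33 counts. At P7 the levels were 0.754, 1.32 and 2.22 CPM in the cortex, 1.29, 1.52 and 2.21 in the hippocampus and 1.15, 3.53 and 7.37 in the cerebellum. The adult libraries stood clear of these, at 73.9, 82.7, 67.6, 77.9 and 55.4 CPM in the cortex, 22.4, 22.1, 21.4, 27.8 and 21.2 in the hippocampus and 104, 96.3, 123, 103 and 94.9 in the cerebellum. From P7 to P35 the rise was 5.77 (SE 0.248) on the log2 scale in the cortex, 54.6-fold, 3.82 (SE 0.207) in the hippocampus, 14.1-fold, and 4.83 (SE 0.302) in the cerebellum, 28.5-fold. The earlier step gave 3.36 (SE 0.383) in the cortex, 0.56 (SE 0.217, adjusted p = 0.0270) in the hippocampus and 2.92 (SE 0.383) in the cerebellum, with few counts behind the cortical value. The mean of adult cerebellum, 104 ± 11.1 CPM (SD, n = 5), was 856 times that of E17.5 cortex, a ratio with 22 counts in its lower part. Scn4b is also a gene of striatal neurons, and a list of 8 striatal genes summed to 125 to 149 CPM in WT adult cortex, 46.5 to 65.5 in adult hippocampus and 143 to 158 in adult cerebellum. In adult cortex 7 of the 8 were at 1 CPM or more, among them Ppp1r1b at a mean of 35.8 CPM, Penk at 17.7, Drd1 at 13.9 and Adora2a at 1.38, with Drd2 at 0.867. The part of striatal tissue in the cortical value was not tested.

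**Figure D2:**
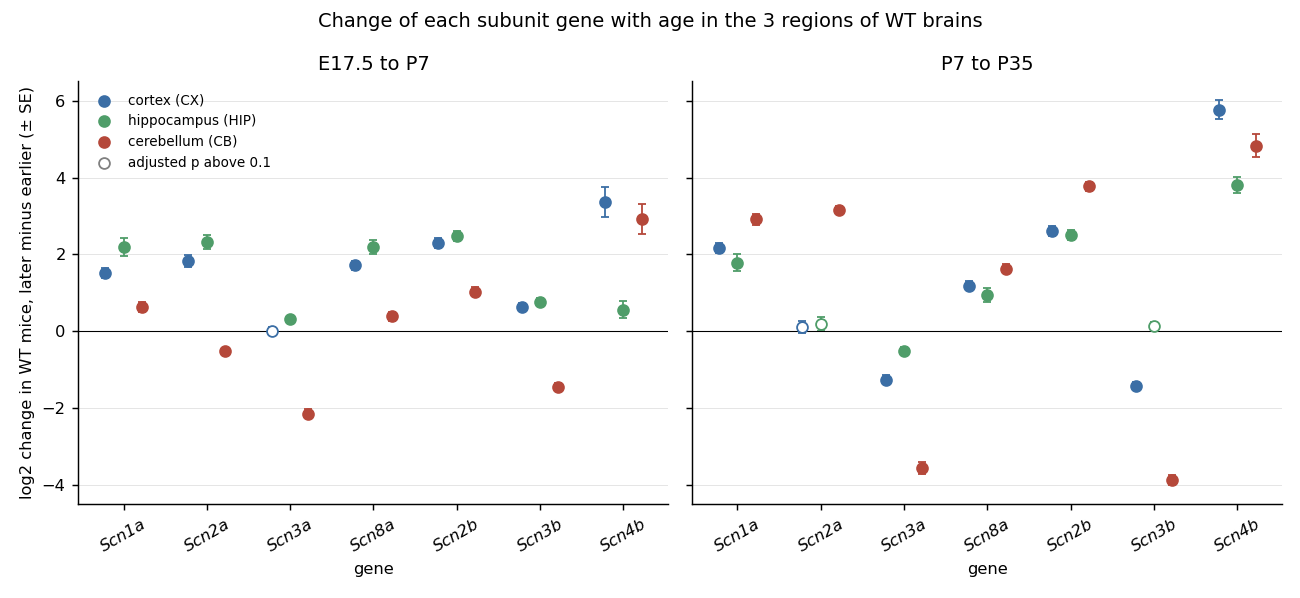
Log2 change of each subunit in WT mice from E17.5 to P7 and from P7 to P35, in each region, with the standard error as the bar. Open symbols had an adjusted p above 0.1, and the cerebellum shows the falls of Scn3a (-2.15 and -3.57) and Scn3b (-1.45 and -3.87) beside the late rise of Scn2a (3.16).

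The same steps in HET mice, which share no library with the WT fits, gave 38 of 42 changes called, as in WT. Of all genes, 85.3%, 79.2% and 75.1% were called to P7 in HET cortex, hippocampus and cerebellum, and 73.1%, 65% and 79.3% to P35, so most genes changed in HET as well. All 38 changes called in WT had the same sign and were called in HET. The 4 that passed in neither were Scn3a from E17.5 to P7 in the cortex, Scn2a from P7 to P35 in cortex and hippocampus, and Scn3b from P7 to P35 in the hippocampus. The largest gap between the genotypes, 0.93 on the log2 scale, was for Scn4b from E17.5 to P7 in the cerebellum, the low-count gene.

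Ordered by the mean CPM of the 9 WT groups, each gene had its own breaks, places where a group's range did not overlap that of the next. Scn1a had breaks above and below adult hippocampus, and the other 6 groups of P7 and E17.5 formed a chain in which each overlapped the next. Scn2a had breaks below the chain of adult cortex, adult cerebellum and P7 cortex and below P7 hippocampus. Scn3a overlapped from P7 cortex down to adult hippocampus, and then broke at adult cortex, P7 cerebellum and adult cerebellum. Scn8a had breaks below adult cerebellum, P7 hippocampus and P7 cerebellum. Scn2b broke below adult cerebellum, adult hippocampus, P7 cortex and P7 cerebellum. Scn3b broke below the groups of adult hippocampus, P7 hippocampus and P7 cortex, below E17.5 cerebellum, below adult cortex and below P7 cerebellum. For Scn4b the 3 adult regions were each apart, followed by a chain of the P7 groups, E17.5 hippocampus and E17.5 cerebellum and, apart from it, E17.5 cortex.

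Levels of different genes can be compared only per length, here as CPM per kilobase (kb) of the longest protein-coding transcript. At E17.5, Scn3b was the highest of the 7 in WT cortex, hippocampus and cerebellum, at 41.0 ± 7.66, 38.7 ± 7.70 and 36.2 ± 3.20 CPM per kb (SD, n = 6), and Scn4b the lowest. Next came Scn2a and Scn3a, which were close to each other, at 21.9 ± 6.71 and 19.6 ± 3.80 in the cortex. At P7 Scn2a had passed Scn3b in the cortex, at 80.3 ± 5.55 against 66.2 ± 2.24, and stayed below it in the hippocampus and cerebellum. In the adult, Scn2b joined or passed Scn2a. The adult cortex had Scn2a at 84.4 ± 4.39 CPM per kb (SD, n = 5), Scn2b at 83.8 ± 4.24, Scn8a at 36.3 ± 2.53 and Scn1a at 35.3 ± 4.12, pairs that differed by less than their SD. Hippocampus kept Scn3b high, at 71.4 ± 4.57, between Scn2b at 79.6 ± 1.88 and Scn2a at 62.4 ± 4.67. The adult cerebellum was ordered Scn2b (105 ± 6.10), Scn2a (82.8 ± 3.83), Scn1a (38.7 ± 1.36), Scn8a (28.3 ± 7.06) and Scn4b (20.9 ± 2.23), with Scn3b at 0.918 ± 0.270 and Scn3a at 0.254 ± 0.0527.

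Because each pore is formed by a single alpha subunit, the make-up of the alpha pool was taken as the share of each gene in the summed per-kb level of the 4 genes in a library, a ratio that does not depend on the scaling of libraries. The sum itself was 49.1 ± 11.7 CPM per kb in WT cortex at E17.5, 125 ± 9.49 at P7 and 164 ± 9.53 at P35. In the cerebellum it was 36.8 ± 2.46, 26.8 ± 3.81 and 150.0 ± 9.68 CPM per kb. The embryonic pool was mostly Scn2a and Scn3a. In the cortex, Scn3a went from 40.5% ± 2.44 (SD, n = 6) to 16.3% ± 1.43 and 5.02% ± 0.126 (n = 5), and Scn2a from 43.9% ± 3.69 to 64.3% ± 1.42 and 51.4% ± 0.734. The adult cortex held similar shares of Scn1a, 21.5% ± 1.57, and Scn8a, 22.1% ± 1.35, which had been 5.59% and 10.0% at E17.5. The hippocampus ran alongside, with Scn3a at 44.1%, 16.1% and 8.38% and Scn1a at 4.48%, 6.43% and 16.6%. In the cerebellum at P7 Scn2a, 34.8% ± 1.78, and Scn8a, 34.8% ± 3.39, held like shares of the pool. By P35 Scn2a stood at 55.2% ± 1.39, Scn1a at 25.9% ± 2.10, Scn8a at 18.7% ± 3.44 and Scn3a at 0.169% ± 0.0304.

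WT and HET shares were compared with exact two-sided permutation tests over mice, 36 in all, which can reach p = 0.00216 with 6 mice a group and 0.00794 with 5. The permutations did not keep same-numbered mice in pairs, so the spread between embryo codes remains in the E17.5 tests. The smallest p of these exact tests was 0.0714, for Scn1a in adult cerebellum at 25.9% in WT and 27.8% in HET, and the smallest adjusted p was 0.771. The largest difference of any share was 2.56 percentage points.

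**Figure D3:**
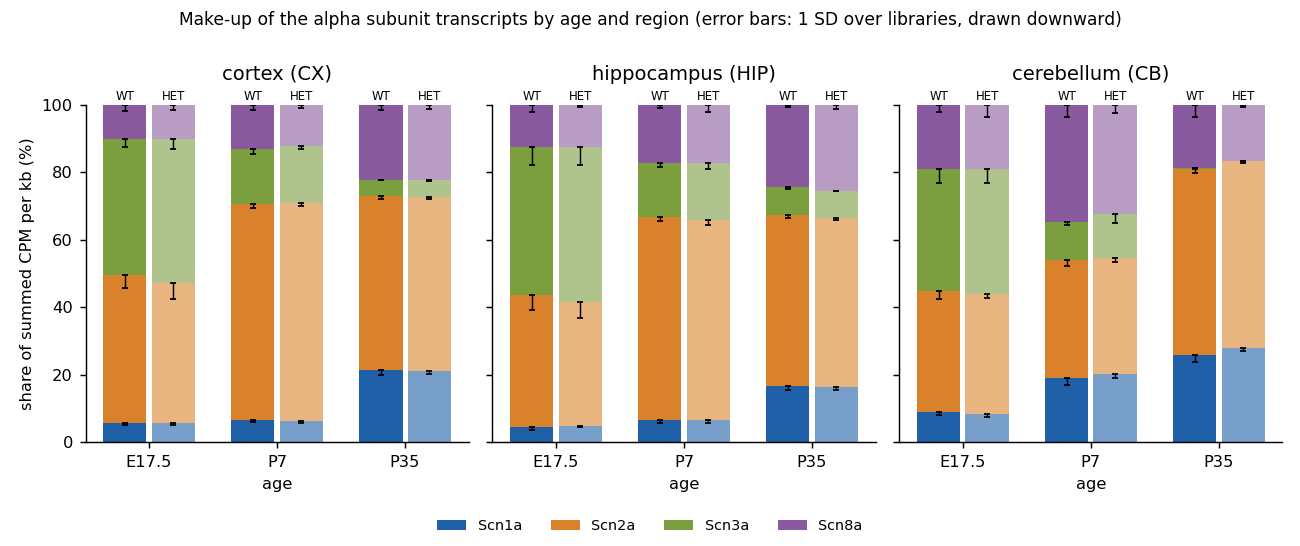
Share of Scn1a, Scn2a, Scn3a and Scn8a in the summed CPM per kb of the 4 alpha genes, in percent, as stacked bars of group means for WT and HET at each age and region, with the SD drawn downward from the top of each part. The Scn3a part shrinks from 36.1% to 0.169% in WT cerebellum and from 40.5% to 5.02% in WT cortex, and WT and HET bars differ by at most 2.56 points.

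The 3 regions of the same mice were compared at each age, with the mouse as a block. At E17.5, hippocampus against cortex gave 1 member higher and 4 lower (46.5% of all genes called), cerebellum against cortex 3 higher and 2 lower (61.7%), and cerebellum against hippocampus 4 higher and 1 lower (49.5%). The 4 alpha genes were lower in hippocampus than cortex, with log2 differences of -1.09 (SE 0.186) for Scn1a, -0.97 (SE 0.148) for Scn2a, -0.69 (SE 0.141) for Scn3a and -0.50 (SE 0.166) for Scn8a. The call of Scn8a was lost without WT embryo replicate 2 or 3, at -0.43 and -0.37 with adjusted p of 0.103 and 0.115, and without the S3 embryos, at -0.32 with an adjusted p of 0.175. Scn4b was 8.85-fold higher in hippocampus, 3.15 (SE 0.437, adjusted p = 8.90e-05), against the 22 counts of the cortex. The cerebellum exceeded both forebrain regions in Scn8a, by 0.58 (SE 0.164) over cortex and 1.08 (SE 0.167) over hippocampus, and in Scn2b, by 0.49 (SE 0.123) and 0.60 (SE 0.123). Its Scn2a was -0.62 (SE 0.148) against cortex and 0.35 (SE 0.149, adjusted p = 0.0719) against hippocampus. The hippocampal comparison of Scn2a lost its call when any of 4 WT embryos, replicates 1 to 4, was left out, with log2 values of 0.21 to 0.38 and adjusted p of 0.111 to 0.233, and was 0.054 without the S3 embryos, with an adjusted p of 0.730. Scn3b did not pass the test between any regions at this age, with -0.058 (approximate 95% interval -0.29 to 0.18, adjusted p = 0.730) for hippocampus minus cortex and -0.12 (approximate 95% interval -0.36 to 0.11, adjusted p = 0.396) for cerebellum minus cortex. Without the S3 embryos it was lower in cerebellum, -0.37 against cortex and -0.31 against hippocampus, with adjusted p of 0.00310 and 0.0122. Scn1a in cerebellum minus cortex was 0.34 and not called, with an adjusted p of 0.124, and 0.39 without WT embryo replicate 6, with an adjusted p of 0.0469. Against hippocampus, cerebellar Scn1a was higher, at 1.435 (SE 0.188), and Scn4b lower, at -1.26 (SE 0.3625). For cerebellum minus cortex, Scn3a gave -0.51 (SE 0.141) and Scn4b 1.88 (SE 0.452), the latter with few counts.

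At P7 the cerebellum had parted from the forebrain. Against cortex, 1 member was higher and 6 lower (82.9% of all genes called), and against hippocampus 1 was higher and 5 lower (78.2%). Scn2a was 8.37-fold lower in cerebellum than cortex, -3.07 (SE 0.0638, adjusted p = 3.55e-15), Scn3a 6.47-fold lower, -2.69 (SE 0.0967), and Scn3b 4.75-fold lower, -2.25 (SE 0.0465). These 3 genes were also below hippocampus, at -2.52 (SE 0.0625), -2.23 (SE 0.0952) and -2.23 (SE 0.0465). The gaps of Scn1a, Scn8a and Scn2b to cortex were smaller, at -0.61 (SE 0.107), -0.75 (SE 0.0895) and -0.82 (SE 0.0633). Scn4b was the exception, higher in cerebellum by 1.45 (SE 0.348) over cortex and 1.18 (SE 0.335) over hippocampus. Scn1a against hippocampus was -0.15 (approximate 95% interval -0.36 to 0.057, adjusted p = 0.210), and -0.27 with an adjusted p of 0.0138 without 1 WT mouse, replicate 6 of the cortex. Hippocampus against cortex gave 0 higher and 3 lower (57%), which were Scn1a at -0.45 (SE 0.107), Scn2a at -0.54 (SE 0.0589) and Scn3a at -0.46 (SE 0.0896), while the 3 beta genes and Scn8a gave values of -0.036 to 0.27 that did not pass.

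In the adult, 2 members were higher and 5 lower in hippocampus than cortex (51.5% of all genes called), 3 were higher and 3 lower in cerebellum than cortex (75.4%), and 4 were higher and 2 lower in cerebellum than hippocampus (75.1%). The widest regional gaps were those of Scn3a and Scn3b in the cerebellum. Scn3a was 32.6-fold below cortex, -5.03 (SE 0.108, adjusted p = 5.65e-13), and 40.3-fold below hippocampus, -5.33 (SE 0.109). Scn3b was 26.7-fold below cortex, -4.74 (SE 0.142), and 78.6-fold below hippocampus, -6.30 (SE 0.149, adjusted p = 1.38e-12). Scn2a did not pass the test between cerebellum and cortex, at -0.034 (approximate 95% interval -0.15 to 0.080, adjusted p = 0.618), and was higher in cerebellum than hippocampus by 0.42 (SE 0.0580). The hippocampus itself held more Scn3b than the cortex, 2.95-fold or 1.56 (SE 0.115), and 3.13-fold less Scn4b, -1.65 (SE 0.0964). Scn4b was highest in cerebellum, by 0.55 (SE 0.0921) over cortex and 2.19 (SE 0.0975) over hippocampus. Scn2b was also higher in cerebellum, by 0.32 (SE 0.0388) and 0.41 (SE 0.0389). Hippocampus minus cortex gave -0.81 (SE 0.0573) for Scn1a, -0.45 (SE 0.0580) for Scn2a and 0.31 (SE 0.0832) for Scn3a. In cerebellum, Scn1a was 0.94 (SE 0.0574) against hippocampus, and Scn8a was -0.38 (SE 0.101) against cortex. Several small differences lost their call when a single mouse was left out. Scn1a in cerebellum against cortex was 0.13 (SE 0.0568, adjusted p = 0.0574) and lost it when any of 3 of the 5 WT mice, those of cortex replicates 3, 4 and 6, was left out, at 0.084 to 0.13. Scn2b in hippocampus against cortex was -0.090 (SE 0.0388, adjusted p = 0.0785) and lost it when any of 4 mice, those of cortex replicates 1, 2, 4 and 6, was left out, at -0.099 to -0.079. Scn8a, at -0.29 (SE 0.101, adjusted p = 0.0362), lost it without cortex replicate 2 or 4, at -0.25 each. Scn8a in cerebellum against hippocampus was -0.10 (approximate 95% interval -0.30 to 0.10, adjusted p = 0.407) and, without WT replicate 3, -0.21 with an adjusted p of 0.0361.

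**Figure D4:**
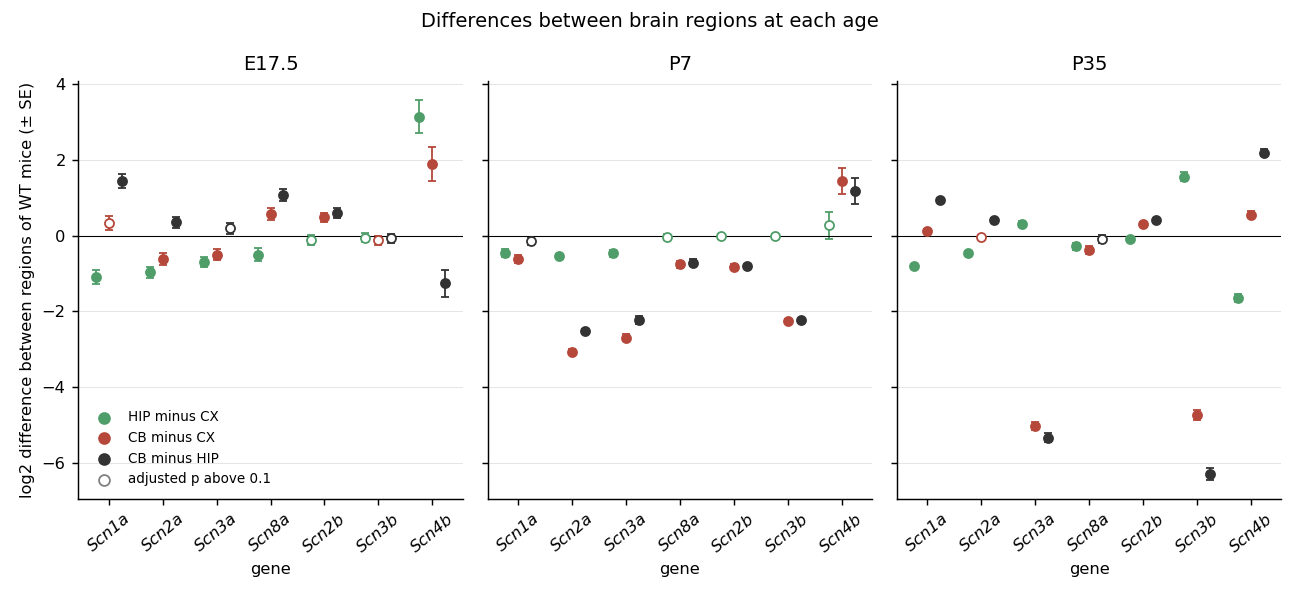
Log2 difference of each subunit between regions of the same WT mice (hippocampus minus cortex, cerebellum minus cortex, cerebellum minus hippocampus) at each age, with the standard error as the bar and open symbols for an adjusted p above 0.1. The adult cerebellum stands at -5.03 for Scn3a and -4.74 for Scn3b against cortex, with the other 5 genes within 0.55 of 0.

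HET mice gave 51 regional differences called of 63, against 50 in WT. For hippocampus against cortex, cerebellum against cortex and cerebellum against hippocampus, the shares of all genes called in HET were 53%, 61.4% and 53% at E17.5, 53.3%, 79.9% and 75% at P7 and 59.2%, 80% and 77.2% at P35. All 50 of the WT calls had the same sign in HET and 47 were called in both. The largest gap, 1.13 on the log2 scale, was again for Scn4b, in E17.5 cerebellum against cortex, at 1.88 in WT and 0.75 in HET.

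The difference between regions in the change with age was tested as an interaction over all WT libraries. For the step to P7, hippocampus against cortex gave 4 members called (38.6% of all genes), cerebellum against cortex 6 (69.6%) and cerebellum against hippocampus 7 (65.9%). For the step to P35 the counts were 3 (17.6%), 7 (61%) and 7 (57.5%). For cerebellum minus cortex, the interaction of Scn2a was -2.44 (SE 0.149) on the log2 scale to P7 and 3.06 (SE 0.157) to P35, its cerebellar rise being the later one. Scn3a changed further downward in cerebellum than in cortex at both steps, with -2.18 (SE 0.164) and -2.31 (SE 0.189). The values of Scn3b were -2.12 (SE 0.142) and -2.46 (SE 0.159), and its late change in cerebellum differed from that of hippocampus by -4.01 (SE 0.161, adjusted p = 8.85e-20). Scn1a, Scn8a and Scn2b rose less to P7 in cerebellum than cortex, with -0.94 (SE 0.187), -1.32 (SE 0.181) and -1.30 (SE 0.119), and more to P35, with 0.77 (SE 0.192), 0.40 (SE 0.187, adjusted p = 0.0688) and 1.17 (SE 0.120). The Scn8a value was not stable, and when any of 5 mice, 2 adult and 3 of P7, was left out it was 0.26 to 0.38 with adjusted p of 0.109 to 0.279. For hippocampus minus cortex, the step from P7 to P35 gave 1.55 (SE 0.147) for Scn3b and 0.75 (SE 0.169) for Scn3a, both of which fell in the cortex. Scn4b rose less in hippocampus than cortex at both steps, with -2.79 (SE 0.593), which rests on 22 counts in WT E17.5 cortex, and -1.94 (SE 0.357). Its P7 to P35 value for cerebellum minus cortex, -0.87 (SE 0.341, adjusted p = 0.0306), was -0.50 with an adjusted p of 0.181 without 1 P7 mouse, WT replicate 6 of the cortex.

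Summed levels of cell type markers also changed with age. The 7 neuronal genes summed to 3457 to 3861 CPM in WT cerebellum at E17.5, 2555 to 2800 at P7 and 4876 to 5140 at P35, and in cortex to 4008 to 5262, 7249 to 7997 and 7155 to 8423. From E17.5 to P7, 5 of the 7 rose and 0 fell in cortex (81.9% of all genes called), and 4 rose and 3 fell in cerebellum (71.2%). The 4 genes of dividing cells summed to 543 to 723 CPM in WT cerebellum at E17.5, 824 to 1056 at P7 and 2.5 to 4.5 at P35. The 6 granule cell genes summed to 701 to 1110 CPM in WT cerebellum at E17.5, 1912 to 2150 at P7 and 3451 to 3736 at P35. The 6 Purkinje cell genes summed to 406 to 736, 1165 to 1323 and 3221 to 4285. Both sums were thus already higher at P7, when Scn2a, Scn3a and Scn3b had fallen there. Their part in the changes of the channel genes was not tested.

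The other genes of the pathway were taken from lists of channel subunits, channel-modulating proteins and anchoring partners. Of the 8 other sodium channel subunits, Scn4a and Scn10a were too low to be tested in these fits. Of all genes, 81.9%, 78% and 71.2% were called to P7 in WT cortex, hippocampus and cerebellum, and 67.7%, 62.7% and 79.4% to P35. The counts called in these lists therefore say little by themselves. In WT cortex, 5 of the 6 tested rose and 0 fell to P7, and 3 rose and 3 fell to P35. In the cerebellum, 1 rose and 5 fell to P7, and 4 rose and 2 fell to P35. The median log2 change of those tested was 2.55 and -0.52 in the cortex and -1.24 and 1.21 in the cerebellum. In the hippocampus, 3 of 5 rose and 0 fell to P7, and 3 rose and 1 fell to P35, with medians of 1.38 and 0.51. Scn9a, an alpha subunit known from peripheral sensory neurons, fell at both steps in the cerebellum, from 28.5 CPM to 1.64 and 0.164, with log2 changes of -4.13 (SE 0.216) and -3.34 (SE 0.364).

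The 4 FGF homologous factors are cytoplasmic proteins that bind the tail of the alpha subunit. In the cortex and the hippocampus, 4 rose and 0 fell to P7 (81.9% and 78% of all genes called), and in the cerebellum 2 rose and 1 fell (71.2%). To P35, 2 rose and 2 fell in the cortex (67.7%), 1 rose and 1 fell in the hippocampus (62.7%), and 3 rose and 1 fell in the cerebellum (79.4%). The same shares of all genes apply to the partners and regulators below. Fgf14 rose late in the cerebellum, from 24.5 to 127 CPM, 2.38 (SE 0.0920) on the log2 scale, and Fgf12 early in the cortex, by 2.72 (SE 0.181). Fgf13 fell late in the cerebellum, with a log2 change of -1.13 (SE 0.124). Of the 8 partners at axon initial segments and nodes, 5 rose and 2 fell to P7 in the cortex and likewise in the hippocampus, and 6 rose and 1 fell in the cerebellum. To P35 the counts were 5 and 1, 5 and 2, and 7 and 1. Cntnap1, an adhesion protein beside the node, went in the cortex from 0.4926 to 18.2 and 171 CPM, and Sptbn4, a spectrin under the node membrane, rose late in the cerebellum by 1.88 (SE 0.126). Cntn2, an axonal adhesion protein, fell early in the cortex, with a log2 change of -3.51 (SE 0.106), and rose early in the cerebellum, by 1.81 (SE 0.0983). Of the 4 channel regulators, 3 rose and 1 fell to P7 in the cortex, 2 and 1 in the hippocampus, and 0 and 1 in the cerebellum. To P35, 0 rose and 1 fell in the cortex and in the hippocampus, and 2 rose and 1 fell in the cerebellum. Prrt2, a membrane protein that restrains sodium channels, rose to P7 in the cortex, 3.16 (SE 0.150), and to P35 in the cerebellum, 3.67 (SE 0.167).

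The members were further set against all genes by the likeness of their 9 WT group means on the log2 CPM scale, as a description of 9 points that share their libraries. Among the members, Scn1a and Scn2b were the most alike, with Pearson's r of 0.98 in WT. Scn3a and Scn3b gave 0.97 in WT and in HET, Scn8a gave 0.96 with Scn1a and with Scn2b, and Scn2b and Scn4b, the neighbors, 0.93. Scn3a and Scn4b ran in opposite directions, at -0.67. Of 16573 other genes whose means spanned at least 1 on the log2 scale, the 3 most like each member were Sec62, Cnnm1 and Vps13b for Scn1a (r = 0.997, 0.988 and 0.987), Ak1, Rnf208 and Ankrd34a for Scn2a (0.992, 0.985 and 0.983), and Kcnn3, Gm15542 and D430019H16Rik for Scn3a (0.981, 0.980 and 0.979). For Scn8a they were Dnm1, Got1 and Slc4a10 (0.995, 0.995 and 0.994), and for Scn2b Acsl6, Ghitm and Sdha (0.996, 0.995 and 0.995). For Scn3b they were Ly6h, Kcnmb2 and Mettl1 (0.985, 0.970 and 0.969), and for Scn4b Sertad1, Mansc1 and A230060F14Rik (0.989, 0.987 and 0.983). Kcnn3 and Kcnmb2 encode potassium channel subunits and Dnm1 a synaptic vesicle dynamin. In HET means the closest gene of each kept r of 0.970 to 0.997.

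To ask whether loss of a Cul3 copy altered the subunits, HET was compared with WT within each age and region. Of the 63 member comparisons, 62 could be made, Scn4b in E17.5 cortex being too low, and 0 were called. The share of all genes called was 0.00603%, 0.00586% and 0.00568% in E17.5 cortex, hippocampus and cerebellum, 0.00566%, 0.00563% and 0.0057% at P7, and 0.00569%, 0.00584% and 0.00584% at P35, which in each case is the 1 gene Cul3. In edgeR, 1 of the 62 had an unadjusted p under 0.05. DESeq2 also called 0 members, with 3 at an unadjusted p under 0.05, and the replicate block 0, with 11. A fit with 3 unwanted factors removed by RUVs called 1, Scn4b in adult cerebellum. The count over all genes depended on the fit, with 1 to 211 genes called per dataset by DESeq2, 0 to 55 with the replicate block and 1 to 195 with RUVs. WT and HET ranges overlapped in all 63 pairs. The log2 difference was below 0 in 39 comparisons and above 0 in 23.

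The comparison with the unadjusted p under 0.05 was Scn2b in P7 hippocampus. The WT libraries were at 54.4, 65.7 and 86.2 CPM (lowest, median and highest) and the HET libraries at 40.3, 54.3 and 63.0, with means of 65.9 ± 11.5 CPM (SD, n = 6) and 52.4 ± 8.57 CPM (SD, n = 6). The ranges overlapped, and the log2 difference was -0.33 (approximate 95% interval -0.57 to -0.088), with an adjusted p of 0.833. Scn2b was also lower on average in P7 cortex, at -0.19 (approximate 95% interval -0.40 to 0.030), and did not pass there. With the replicate block it was lower in HET in 6 of 6 same-numbered pairs in both P7 cortex and P7 hippocampus. The unadjusted p of these blocked edgeR fits were 0.00227 and 0.00311, and the adjusted p 0.782 and 0.942. In adult cerebellum, Scn8a and Scn4b had the smallest adjusted p, 0.349. The HET libraries of Scn8a were at 272, 279, 265, 271 and 262 CPM, beside WT values of 274, 281, 456.5, 345 and 263. The difference, -0.29 (approximate 95% interval -0.55 to -0.028), was -0.13 without WT replicate 3, the high library. For Scn4b the HET libraries were at 116, 119, 121, 116 and 115 CPM and the WT at 104, 96.3, 123, 103 and 94.9, a difference of 0.15 (approximate 95% interval 0.014 to 0.28), or 0.22 with an adjusted p of 0.0115 under RUVs. The approximate intervals of Scn8a and Scn4b leave out 0, although neither unadjusted p in edgeR was under 0.05.

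The other differences were bounded more or less tightly by the spread of their groups. Leaving out Scn4b, the intervals of the 6 genes ran from -0.12 to 0.16 in adult cortex and from -0.12 to 0.23 in adult hippocampus. They were wider in P7 cortex, at -0.40 to 0.11, and P7 cerebellum, at -0.37 to 0.51. In E17.5 cortex and hippocampus, where the S3 embryos stood apart, they ran from -0.81 to 0.33 and from -0.82 to 0.44. These widths hold for the fit without a replicate block. Same-numbered WT and HET embryos share the S2, S3 or S4 code, and with the replicate block the intervals were narrower, -0.41 to 0.12 in E17.5 cortex and -0.36 to 0.11 in E17.5 hippocampus. No embryo code holds only a single WT and a single HET embryo, so within a code the pairs rest on the number alone. In the blocked fit Scn2a was lower in HET in 6 of 6 pairs in the cortex, at -0.29 (approximate 95% interval -0.41 to -0.17, unadjusted p = 0.000936, adjusted p = 0.133 in edgeR). In the hippocampus of the same embryos, which is not a separate sample of mice, Scn2a was lower in 6 of 6 pairs, at -0.26 (approximate 95% interval -0.36 to -0.15, adjusted p = 0.390 in edgeR). Scn3b was also lower in 6 of 6 pairs in both regions, at -0.11 and -0.24 with adjusted p of 0.248 and 0.413 in the blocked edgeR fits. In the cortex, Scn3a and Scn8a were lower in 5 of 6 pairs, at -0.13 and -0.20, while Scn2b gave 0.0034. The adjusted p of Scn3a and Scn8a in that edgeR fit were 0.282 and 0.271. None of these passed the threshold, and in E17.5 cortex the blocked fit called 55 genes of all tested, against 1 without the block. Of the alpha genes in E17.5 cortex, Scn2a was at 196 ± 60.0 CPM (SD, n = 6) in WT and 164 ± 60.6 CPM (SD, n = 6) in HET, -0.25 (approximate 95% interval -0.81 to 0.30). In adult cortex it was at 754 ± 39.3 CPM (SD, n = 5) and 771 ± 21.0 CPM (SD, n = 5), 0.049 (approximate 95% interval -0.028 to 0.13). Scn1a, the gene of fast-firing cells, was at 324 ± 11.4 CPM (SD, n = 5) in WT and 333 ± 13.4 CPM (SD, n = 5) in HET adult cerebellum, 0.014 (approximate 95% interval -0.078 to 0.11). Scn3a in adult cerebellum, a few CPM in either genotype, gave 0.21 (approximate 95% interval -0.10 to 0.52).

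**Figure D5:**
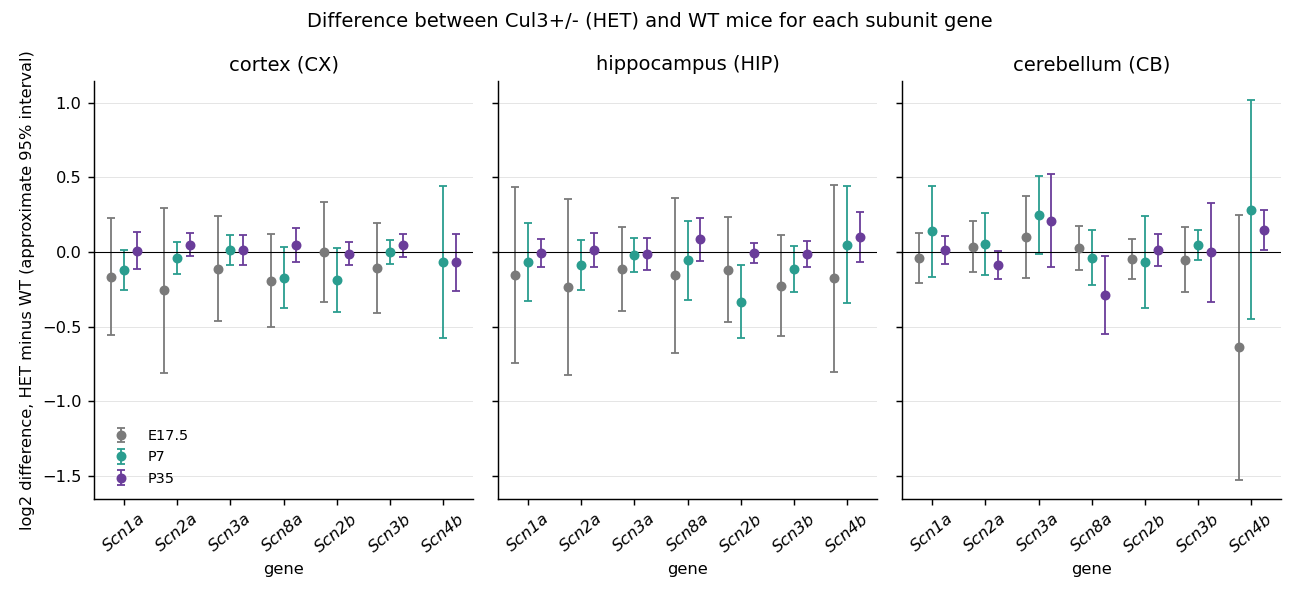
Log2 difference HET minus WT of each subunit at each age and region, with its approximate 95% interval as the bar, from the fit without a replicate block. All 62 comparisons had an adjusted p above 0.1. The widest intervals are those of Scn4b in E17.5 and P7 cerebellum, and in adult cortex the intervals of the 6 genes other than Scn4b lie between -0.12 and 0.16.

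The change with age was also compared between genotypes, as a genotype by age interaction. None of the 42 tests of members was called (0), with 0 at an unadjusted p under 0.05 in edgeR and 0 called by DESeq2, and the smallest adjusted p was 0.471. Over all genes, 0% were called in each of the 6 comparisons, with 374 to 3047 genes at an unadjusted p under 0.05. The genes of the 4 pathway lists gave 0 genotype differences called in any dataset.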

How the data were processed

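The authors trimmed reads with cutadapt 1.14, aligned them to GRCm38 with STAR 2.5.3a and Gencode annotation, and deposited expected counts per gene from RSEM 1.3, from stranded, ribosomal RNA-depleted libraries (versions per the submitters' processing notes). The counts are not normalized, and 5.76% of values (42.7% of those of the members) were not whole. They were rounded. After filterByExpr with a count minimum of 10 and a total minimum of 15, counts were scaled by TMM and tested with edgeR 4.0.16 (quasi-likelihood, R 4.3.3), with Benjamini-Hochberg adjustment over all genes. Region fits held the mouse as a block. Sex is not given in the labels and was not fitted. Intervals are the log2 value ± 1.96 SE and cover the spread between mice. Of 240 pairs of libraries of a group, the closest differed by a chi-square of 5.73 per degree of freedom, so each library counted as a separate sample. Same-numbered WT and HET mice share the code in their names in 6 of 6 pairs per region at E17.5 and P7 (adult names hold none), but the labels do not say what the code marks. Their deviations from the group means correlated above 0.1 in every pair only in E17.5 cortex (median 0.474, range 0.113 to 0.759, with -0.094 as the median of differently numbered libraries). The main genotype fits held no replicate block in any dataset, E17.5 cortex included, and the blocked fits are an alternative. In P7 and adult cortex every pair was positive, with lowest values of 0.087 and 0.012. The comparisons covered all 7 members, though not every regional, interaction and genotype value is printed. Other genes are named where called with a log2 change of 1 or more in size, or as the 3 most like a member. The members and lists were chosen with earlier results of these data known. Alternatives were other scalings, DESeq2 1.42.0, no filter, removal of 3 unwanted factors with RUVs, replicate blocks, leaving out each mouse, keeping the 2 adult mice, and union exon lengths.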

Additional observations from a re-analysis of the deposited data

Results flagged for a closer look

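Of 126 groups of a member's libraries, 6 held a library far from the others of its group by Dixon's criterion, which chance gives in about 1 group in 20. These were Scn3b in P7 cerebellum of HET mice, with a highest library at 65.0 CPM and the next at 57.4, and Scn8a in P7 cortex of WT mice, at 260.5 CPM with the next at 186. Scn8a in E17.5 cerebellum of WT mice had a lowest library at 65.7 CPM, an S3 embryo, with the next at 80.7. The other 3 were all of Scn4b. Its highest library was at 0.721 CPM in E17.5 cerebellum of HET mice, with the next at 0.320, and at 27.8 CPM in adult hippocampus of WT mice, with the next at 22.4. Its lowest library in P7 hippocampus of HET mice was at 0.869 CPM, with the next at 1.75.

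The change with age differed between regions by 2 or more on the log2 scale in 14 tests of WT mice. From E17.5 to P7, cerebellum minus cortex gave -2.44 for Scn2a, -2.18 for Scn3a and -2.12 for Scn3b, and cerebellum minus hippocampus gave -2.92 for Scn2a, -2.46 for Scn3a, -2.21 for Scn3b and 2.34 for Scn4b. Scn4b gave -2.79 for hippocampus minus cortex at that step, a value that rests on 22 counts in WT E17.5 cortex. From P7 to P35, cerebellum minus cortex gave 3.06 for Scn2a, -2.31 for Scn3a and -2.46 for Scn3b, and cerebellum minus hippocampus gave 2.996 for Scn2a, -3.05 for Scn3a and -4.01 for Scn3b.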

How the results depend on the processing

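The count of members called moved in the genotype comparison under RUVs with 3 factors, which called 1 member instead of 0. It was Scn4b in adult cerebellum, at a log2 difference of 0.22 with an adjusted p of 0.0115 (0.321 to 0.554 when each mouse was left out of the other fit), and the cause was not tested. With the replicate block, the genotype comparison and its interaction with age stayed at 0 calls of members. The block raised the genes called in E17.5 cortex from 1 to 55 and narrowed the E17.5 intervals. The age comparisons stayed at 38 in WT and 38 in HET. Mice of different ages share only a replicate number, so there the block ties unrelated mice and its result does not bear on these calls. Without the mouse as a block, regional calls were 48 in WT, against 50, and 50 in HET, against 51. The interaction of region and age stayed at 34. DESeq2 called 38 and 39 age changes, 51 and 52 regional differences and 34 interactions of region and age. Leaving out each mouse in turn gave 38 age changes in WT, 47 to 52 regional differences in WT and 33 to 34 interactions. No result changed its direction past the threshold under any of these settings. Without the S3 embryos, a choice made after seeing the data, 41 age changes and 50 regional differences were called in WT. Small regional differences were the least stable. Scn2b in adult hippocampus against cortex lost its call under upper-quartile scaling (adjusted p = 0.164) and with no low-count filter (0.387), and Scn1a in adult cerebellum against cortex under DESeq2 (0.119) and with no filter (0.115). With union exon lengths in place of transcript lengths, 18 of 72 group shares of the alpha genes moved by more than their SD. Depth limited the E17.5 values of Scn4b, and scaling of levels by the upper quartile, added after seeing the data, moved 0 of 63 WT group levels by more than their SD.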
